A study of Mus musculus with 16 samples.

Results

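Mcpt8, Prss34, Cpa3, Fcer1a, Ms4a2, Gata2, Hdc and Cd200r3 are genes that mark basophils and mast cells in the mouse. They were taken by symbol as 8 of the 24001 gene rows of a table of RNA levels in bone marrow-derived dendritic cells, and they are described across 8 groups of 2 libraries each. Basophils and mast cells are granule-bearing immune cells that bind IgE through the receptor FcεRI and release stored histamine and proteases when the bound IgE is cross-linked. Both arise from bone marrow progenitors under GATA2 and grow out in IL-3, whose receptor shares its beta chain with the receptor for GM-CSF. Bone marrow grown in GM-CSF and IL-4 is used to make dendritic cells, and such cultures can also hold macrophages and granulocytes.

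The cells came from NZM2410 mice, a strain that develops lupus, and were cultured for 7 days with GM-CSF at 20 ng/ml and IL-4 at 10 ng/ml. The study asked how the form of oestrogen receptor α, the product of Esr1, changes RNA in CD11c-high cells. The first 4 groups came from ovariectomized mice and are called Ex3a OVX here, labelled as the receptor null, and ERKO OVX, labelled as a short receptor with a mutated AF-1 region. These mice had their ovaries removed at 4 to 8 weeks of age and carried a 90-day pellet of 0.25 mg estradiol. The other 4 groups came from unoperated mice and are called KO, labelled with the same short receptor, and WT, the normal receptor. Each of these 4 arms was treated for 24 h with agonist, which was loxoribine (a TLR7 agonist) together with CpG at 1 μg/ml (a TLR9 agonist), or with vehicle. The title of the series speaks of a deletion in CD11c+ cells, whereas the labels name Esr1 alleles and no Cre driver. Groups are named by their source labels, and 4 of the 8 are described otherwise by their own genotype fields. The genotype fields and descriptions give the allele Esr1(tm4.2Ksk), without receptor activity, for ERKO OVX vehicle and KO vehicle, and Esr1(tm1Ksk), the truncated receptor, for ERKO OVX agonist, KO agonist and Ex3a OVX with either treatment. By those fields, agonist and vehicle libraries of ERKO OVX and of KO would differ in allele as well as in treatment, and the 2 cannot be told apart there. Every ovariectomized library was shallower than every unoperated library, so that surgery with pellet, library preparation and depth cannot be told apart. The labels do not state whether paired libraries are from different mice or different cultures. The p-values therefore rest on the spread between the libraries at hand, and that spread may be technical.

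Values are FPKM, in which the fragments of a gene are scaled to its transcript length and to the mapped fragments of the library, which allows levels of different genes to be set side by side. Estimated depth was 17.5 to 23.6 M fragments in the ovariectomized libraries and 36.8 to 43.1 M in the unoperated ones. Esr1 itself (chr10:4611593-5005614, mm10) stood at 0.364 and 0.317 FPKM in the Ex3a OVX agonist libraries and 0.347 and 0.283 in Ex3a OVX vehicle. It stood at 1.12 and 1.16 in ERKO OVX agonist, 1.02 and 0.982 in ERKO OVX vehicle, 2.01 and 1.77 in KO agonist, and 2.47 and 2.57 in KO vehicle. In WT it was 0.937 and 0.684 FPKM with agonist and 1.21 and 1.38 with vehicle. Reads summed over a gene do not tell the alleles apart, and the lowest Esr1 values were those of the arm labelled null. Of 12 dendritic cell markers, Itgax (CD11c) was at 86.0 to 90.5 FPKM in Ex3a OVX, 145 to 155 in ERKO OVX and 97.7 to 115 in the unoperated libraries, and Cd209a (DC-SIGN) was at or under 0.0309 FPKM in all 16. Other markers of that list differed by surgery state in both directions. Zbtb46 was at 2.65 to 4.69 FPKM in the ovariectomized libraries and 13.1 to 27.8 in the unoperated ones. H2-Ab1 was at 1190 to 1950 FPKM in the ovariectomized libraries and 208 to 298 in the unoperated ones.

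Promoters are shown for 4 of the genes that were near 0 in every unoperated library and present in every ovariectomized one, since they run from no copy to 3 copies of the motif that GATA factors bind. Each line gives the 250 bases before the transcription start on the strand of the gene, 5′ to 3′, from RefSeq on GRCm38.p6. Mcpt8, Cpa3 and Ms4a2 lie on the minus strand and Prss34 on the plus strand. Capitals mark the motif AGATAA with its variants, which are AGATAG as well as TGATAA and in addition TGATAG, on either strand.
Mcpt8, chr14:56085198-56085447: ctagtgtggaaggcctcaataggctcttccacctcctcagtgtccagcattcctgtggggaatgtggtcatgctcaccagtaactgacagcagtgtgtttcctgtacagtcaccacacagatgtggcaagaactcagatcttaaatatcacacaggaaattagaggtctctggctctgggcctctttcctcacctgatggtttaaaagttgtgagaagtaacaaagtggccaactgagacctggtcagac
Prss34, chr17:25298144-25298393: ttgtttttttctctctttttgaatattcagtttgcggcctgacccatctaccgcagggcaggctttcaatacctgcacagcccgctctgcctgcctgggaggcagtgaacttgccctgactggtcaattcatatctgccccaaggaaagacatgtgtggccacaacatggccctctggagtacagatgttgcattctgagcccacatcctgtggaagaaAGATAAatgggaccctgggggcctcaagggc
Cpa3, chr3:20242182-20242431: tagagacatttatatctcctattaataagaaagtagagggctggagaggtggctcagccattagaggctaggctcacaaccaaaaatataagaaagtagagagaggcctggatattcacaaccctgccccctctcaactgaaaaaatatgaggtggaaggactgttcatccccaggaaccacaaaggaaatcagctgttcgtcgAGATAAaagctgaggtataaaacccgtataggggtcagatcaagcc
Ms4a2, chr19:11623720-11623969: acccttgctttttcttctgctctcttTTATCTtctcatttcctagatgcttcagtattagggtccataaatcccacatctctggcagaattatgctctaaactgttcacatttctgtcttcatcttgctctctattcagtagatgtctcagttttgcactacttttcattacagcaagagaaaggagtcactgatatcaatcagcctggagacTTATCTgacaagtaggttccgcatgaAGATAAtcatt

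All 8 genes were found in the RefSeq promoter table, Gata2 with 2 starts. In windows of 300 bases, 250 before the start and 50 after it, the motif began 31 bases before the start of Prss34, 46 before that of Cpa3, 92 before that of Fcer1a and 221 before that of Hdc. Ms4a2 held 3 copies, at 224, 37 and 11 bases before the start, and Cd200r3 also held 3, at 115, 39 and 33, the last 2 of them adjoining. These letters were not found in the windows of Mcpt8 and Gata2. Of 32851 mouse promoters of the same length, 29.8% held at least 1 such motif, 7.77% at least 2 and 1.76% at least 3. The copy in Fcer1a, those at 224 and 37 bases in Ms4a2 and that at 115 bases in Cd200r3 lay on the opposite strand. A match describes the letters only.

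The 3 granule protease genes were clearly present in all 8 ovariectomized libraries and near 0 in all 8 unoperated ones. Mcpt8 (mast cell protease 8, chr14:56082166-56085273, minus strand) encodes a serine protease that mouse basophils store in their granules. It stood at 13.1 and 12 FPKM in Ex3a OVX agonist libraries and 18.5 and 19.0 in Ex3a OVX vehicle libraries. In ERKO OVX it stood at 39.8 and 36.3 FPKM with agonist and 52.6 and 52.5 with vehicle. The unoperated libraries had 0.0665 and 0.164 FPKM in KO agonist, 0 and 0.0330 in KO vehicle, 0.0681 and 0 in WT agonist, and 0.0317 and 0.150 in WT vehicle. ERKO OVX was thus above Ex3a OVX without overlap, and every ovariectomized library was above every unoperated one. At these depths the unoperated values correspond to between 0 and 6.5 fragments of Mcpt8 per library, so that no order among those groups can be read.

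Prss34 (chr17:25298394-25300165, plus strand), a second granule serine protease of basophils, differed less between the ovariectomized arms. It stood at 16.5 and 17.4 FPKM in Ex3a OVX agonist, 28.1 and 27.0 in Ex3a OVX vehicle, 25.3 and 24.4 in ERKO OVX agonist, and 38.5 and 36.2 in ERKO OVX vehicle. In the unoperated libraries it ranged from 0.0202 to 0.0808 FPKM with a median of 0.0421, or 1.1 to 4.2 fragments per library. The Ex3a OVX vehicle libraries therefore lay above the ERKO OVX agonist libraries for Prss34, which was not so for Mcpt8. Cpa3 (chr3:20215620-20242181, minus strand) encodes carboxypeptidase A3, a granule enzyme of mast cells and basophils. It stood at 3.85 and 3.62 FPKM in Ex3a OVX agonist, 4.14 and 4.59 in Ex3a OVX vehicle, 13.3 and 14.1 in ERKO OVX agonist, and 16 and 16.1 in ERKO OVX vehicle. Over the unoperated libraries Cpa3 ranged from 0 to 0.0692 FPKM, with a median of 0.0262, and both KO vehicle libraries were at 0.

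**Figure D1:**
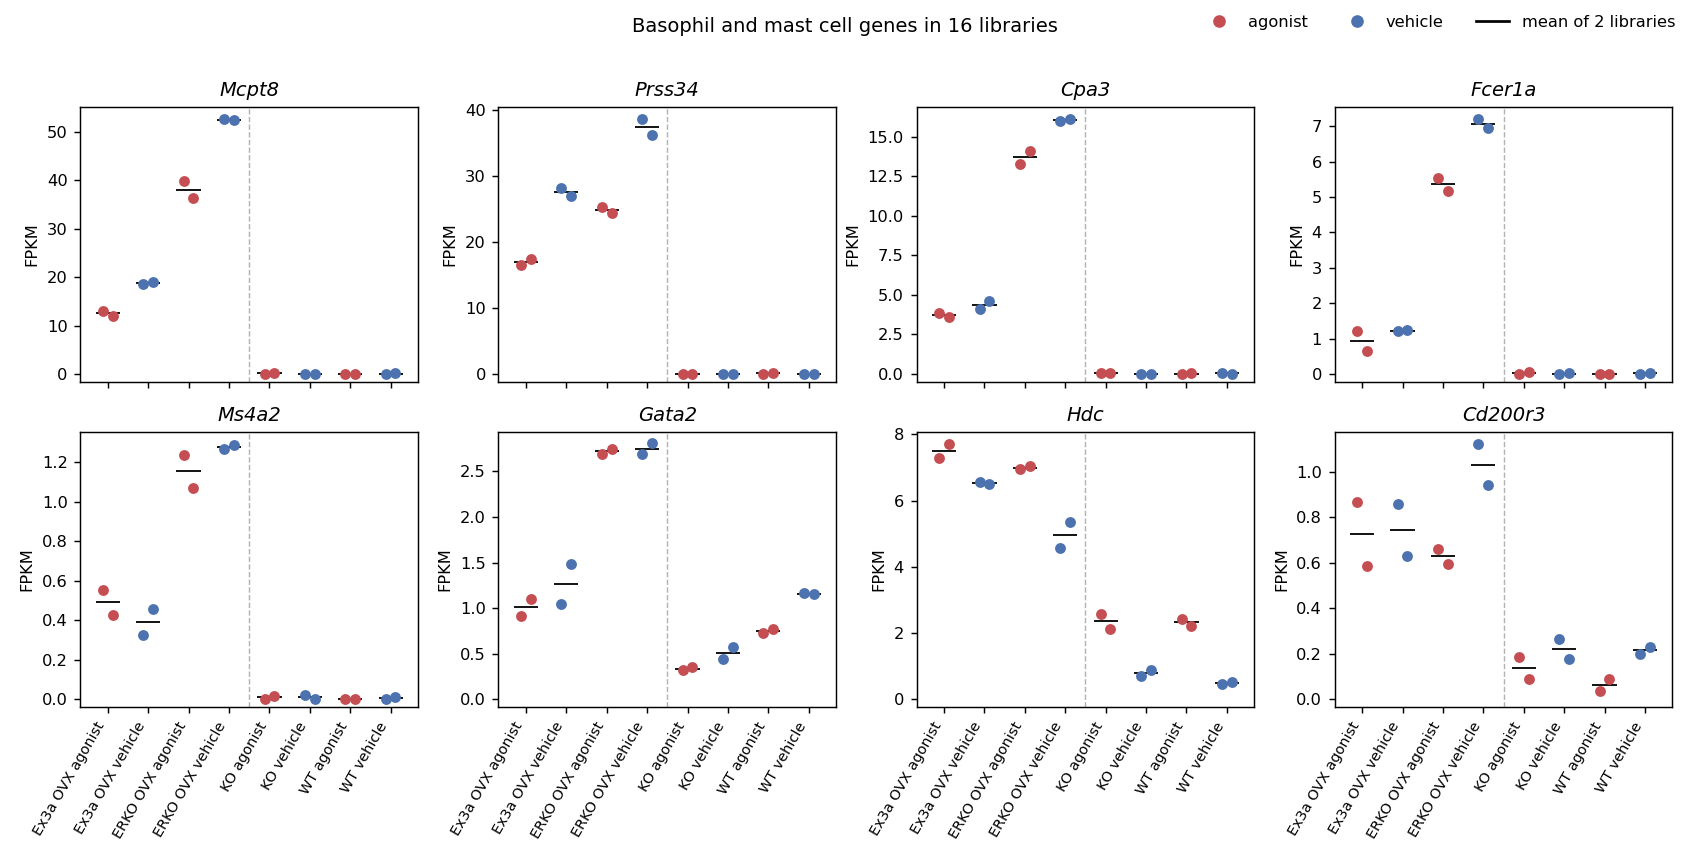
FPKM (linear axis, a different range in each panel) of the 8 genes, with 1 point per library, a bar at the mean of the 2 libraries of a group, red for agonist and blue for vehicle; the dashed line separates the ovariectomized arms on the left from the unoperated arms on the right. Mcpt8, Prss34, Cpa3, Fcer1a and Ms4a2 sit near 0 in all unoperated libraries, while Gata2 and Hdc do not: WT vehicle reaches 1.16 FPKM for Gata2 and KO agonist 2.56 for Hdc.

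The 2 FcεRI subunits were higher in ERKO OVX than in Ex3a OVX without overlap, as Cpa3 was. Fcer1a (chr1:173221284-173227214, minus strand) encodes the alpha chain, which binds IgE. It stood at 1.21 and 0.647 FPKM in Ex3a OVX agonist, 1.21 and 1.23 in Ex3a OVX vehicle, 5.54 and 5.18 in ERKO OVX agonist, and 7.19 and 6.94 in ERKO OVX vehicle. Of the 8 unoperated libraries 5 were at 0 and the highest was at 0.0510 FPKM. Ms4a2 (chr19:11615523-11623719, minus strand) encodes the beta chain, which amplifies the signal of the receptor. It stood at 0.555 and 0.425 FPKM in Ex3a OVX agonist, 0.325 and 0.457 in Ex3a OVX vehicle, 1.24 and 1.07 in ERKO OVX agonist, and 1.27 and 1.29 in ERKO OVX vehicle. Of the unoperated libraries 5 were again at 0 and the highest was at 0.0193 FPKM. The 2 Ex3a OVX agonist libraries differed from each other by more for Fcer1a than the 2 Ex3a OVX groups did in their means, 0.929 FPKM with agonist and 1.22 with vehicle.

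Gata2 (chr6:88193891-88207032, plus strand) encodes a transcription factor needed for basophil and mast cell development and also used by stem cells and progenitors. It was at 0.317 FPKM or more in every library. It stood at 0.915 and 1.10 FPKM in Ex3a OVX agonist, 1.04 and 1.48 in Ex3a OVX vehicle, 2.69 and 2.75 in ERKO OVX agonist, and 2.69 and 2.81 in ERKO OVX vehicle. In the unoperated arms it stood at 0.317 and 0.354 FPKM in KO agonist, 0.438 and 0.570 in KO vehicle, 0.728 and 0.774 in WT agonist, and 1.16 and 1.15 in WT vehicle. The Ex3a OVX vehicle and WT vehicle libraries overlapped, so the gap between surgery states seen for the proteases was not complete for Gata2.

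Hdc (chr2:126593667-126619299, minus strand) encodes histidine decarboxylase, which makes histamine and is also expressed by other myeloid cells. It stood at 7.28 and 7.71 FPKM in Ex3a OVX agonist, 6.57 and 6.50 in Ex3a OVX vehicle, 6.95 and 7.03 in ERKO OVX agonist, and 4.58 and 5.36 in ERKO OVX vehicle. In KO it stood at 2.56 and 2.13 FPKM with agonist and 0.683 and 0.875 with vehicle, and in WT at 2.42 and 2.22 with agonist and 0.464 and 0.504 with vehicle. Hdc was thus higher with agonist than with vehicle in all 4 arms without overlap, and it was lowest of the ovariectomized groups in ERKO OVX vehicle, where Mcpt8, Prss34, Cpa3, Fcer1a and Ms4a2 were highest. Cd200r3 (chr16:44943678-44981380, plus strand) encodes an activating member of the CD200 receptor family found on mouse basophils and mast cells. It stood at 0.868 and 0.584 FPKM in Ex3a OVX agonist, 0.857 and 0.630 in Ex3a OVX vehicle, 0.659 and 0.595 in ERKO OVX agonist, and 1.12 and 0.940 in ERKO OVX vehicle. Over the unoperated libraries it ranged from 0.0375 to 0.265 FPKM with a median of 0.179. Only 1 library reached 1 FPKM, so Cd200r3 failed the filter of 1 FPKM in at least 2 libraries, and 7 of the 8 genes entered the tests below. Its close relatives Cd200r2 and Cd200r4 lie in the same cluster, and the treatment of reads that match more than 1 of them is not stated in the labels.

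Summed over the 8 genes, the level was 44.2 and 43.5 FPKM in Ex3a OVX agonist, 60.7 and 60.9 in Ex3a OVX vehicle, 95.4 and 91.3 in ERKO OVX agonist, and 124 and 122 in ERKO OVX vehicle, against 1.43 to 3.34 in the unoperated libraries. ERKO OVX vehicle had the highest mean for 7 of the 8 genes, all but Hdc. For Mcpt8 and Cpa3 the order below it was ERKO OVX agonist, Ex3a OVX vehicle and Ex3a OVX agonist, with no overlap between neighbours. For Fcer1a the 2 Ex3a OVX groups overlapped, and for Ms4a2 they overlapped with the agonist group on top. For Gata2 the 2 ERKO OVX groups overlapped, and for Cd200r3 no pair of neighbours among the lower 3 ovariectomized groups was apart. Among the unoperated groups every pair of neighbours overlapped for Mcpt8, Fcer1a and Ms4a2. Their Gata2 levels were apart at each step, WT vehicle, WT agonist, KO vehicle and KO agonist from high to low.

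ERKO OVX was set against KO, by both sets of labels the same receptor form within a treatment, with and without ovariectomy and pellet. Mcpt8, Prss34, Cpa3, Fcer1a, Ms4a2, Gata2 and Hdc were all higher in ERKO OVX, with vehicle and with agonist. Changes are differences of log2(FPKM + 1), which understate the change of low genes, and calls are adjusted p under 0.05 from limma with Benjamini-Hochberg adjustment over all genes tested. With vehicle, 7 of the 7 tested genes were called higher, while 41.0% of all 11347 genes tested were called higher. Mcpt8, Prss34, Cpa3, Fcer1a and Ms4a2 passed the filter of 1 FPKM in at least 2 libraries through ovariectomized libraries alone, Ms4a2 through ERKO OVX alone, so that being higher there was built into their being tested. Nothing is read from the count of these genes called, in either treatment, against the share of all genes. The changes with vehicle, each ± SE, were 5.72 ± 0.09 for Mcpt8 (adjusted p = 1.72e-11), 5.20 ± 0.06 for Prss34 (4.04e-12) and 4.09 ± 0.06 for Cpa3 (2.17e-11). The receptor subunits changed by 2.99 ± 0.07 for Fcer1a (adjusted p = 1.69e-10, limma) and 1.17 ± 0.07 for Ms4a2 (9.40e-08). Hdc changed by 1.75 ± 0.09 (adjusted p = 4.70e-08, limma) and Gata2 by 1.32 ± 0.07 (6.88e-08).

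With agonist the same 7 genes were called higher, against 40.1% of all genes tested. Changes were 5.13 for Mcpt8, 4.63 for Prss34, 3.8 for Cpa3, 2.63 for Fcer1a, 1.48 for Gata2, 1.26 for Hdc and 1.10 for Ms4a2, with adjusted p between 1.08e-11 and 6.44e-07 in limma. Tested without the filter on low values, Cd200r3 was also higher, by 0.74 ± 0.07 with vehicle (adjusted p = 1.93e-04, limma) and by 0.52 ± 0.07 with agonist (adjusted p = 0.00108). Since KO libraries held few or no fragments of the proteases and FcεRI subunits, the size of these changes is set by the ERKO OVX level and the added 1 FPKM, and no ratio is given. Their error comes from unoperated libraries near 0, so the SE and p-values do not measure the spread at the ERKO OVX level. In bulk RNA, fewer cells of a type and less RNA per cell cannot be told apart.

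**Figure D2:**
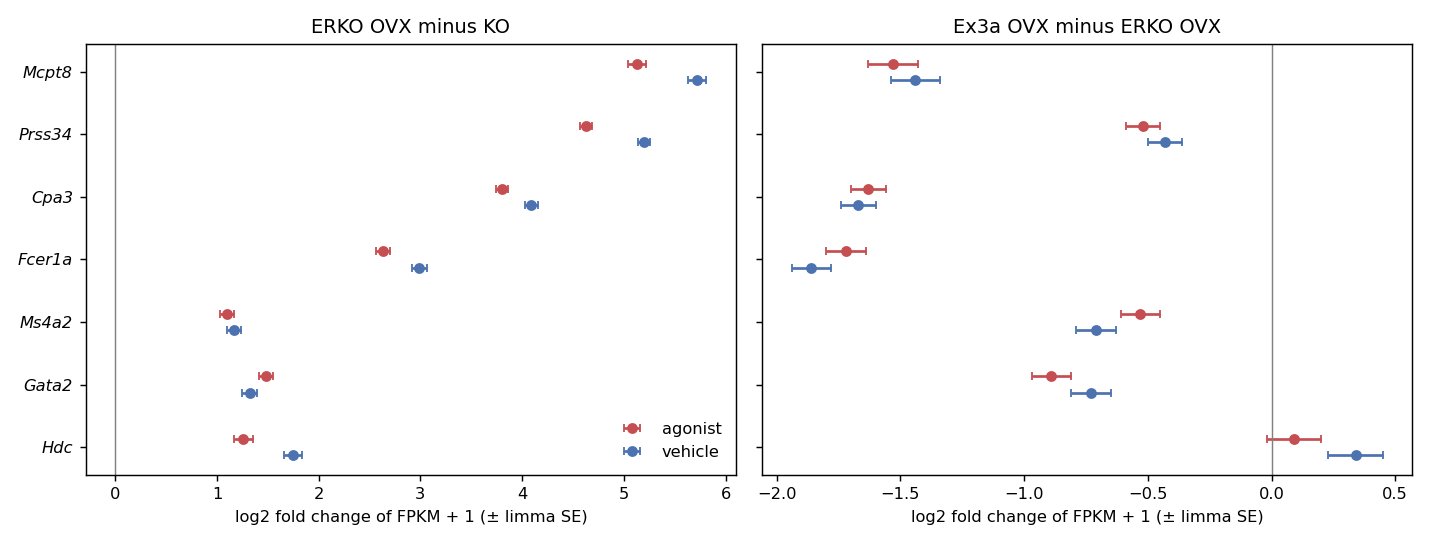
Differences of log2(FPKM + 1) (horizontal axis, bars ± SE from limma) for the 7 tested genes, with agonist libraries in red and vehicle libraries in blue. In ERKO OVX minus KO (left) all 14 points lie above 0, from 1.10 to 5.72; in Ex3a OVX minus ERKO OVX (right) all points but those of Hdc lie below 0, from -0.43 to -1.86.

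Genes of the same cells and pathways outside these 8 moved in both directions between ERKO OVX and KO. Of all genes tested, 41.0% were called higher with vehicle. Nothing is read from the counts of this and the following lists against that share. Of 40 further basophil and mast cell genes in the table, 17 were tested and with vehicle 11 were higher and 4 lower, with a median of 0.40. They included Cyp11a1, the first enzyme of steroid synthesis, with a change of 3.22 ± 0.08 (adjusted p = 2.14e-10, limma), and Il13, a type 2 cytokine, with 1.17 ± 0.08 (3.22e-07). Il13 passed the filter through ERKO OVX alone, so that being higher there was built into its being tested. Cyp11a1 stood at 12.2 and 13.6 FPKM in ERKO OVX agonist and 19.5 and 20.4 in ERKO OVX vehicle, against 0.553 and 0.719 in KO agonist and 1.25 and 1.23 in KO vehicle. Other classical members of this list stayed low: Itga2, the integrin recognised by the DX5 antibody, was at or under 0.0383 FPKM in all 16 libraries, and Il4 at or under 0.711. The IL-3 receptor gene Il3ra ran the other way, at 3.48 and 3.16 FPKM in ERKO OVX vehicle against 4.31 and 4.88 in KO vehicle. With agonist, Il3ra was at 2.78 and 2.59 FPKM in ERKO OVX and 4.64 and 4.15 in KO. Il1rl1, the receptor for IL-33, was at 0.505 to 0.622 FPKM in ERKO OVX, 0.0904 to 0.143 in Ex3a OVX and at or under 0.0848 in the unoperated libraries.

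In the FcεRI signalling list, 12 of 24 tested genes were higher and 11 lower in ERKO OVX with vehicle, with a median of 0.09. The adaptors Lat and Lat2 rose by 2.68 ± 0.06 (adjusted p = 1.41e-10, limma) and 1.96 ± 0.04 (1.13e-10), and Fcer1g, the gamma chain that FcεRI shares with other Fc receptors, rose by 1.83 ± 0.03 (1.95e-11). The ubiquitin ligase gene Cblb fell by 1.65 and the kinase gene Fyn fell by 1.64 in the same comparison. Unlike Fcer1a and Ms4a2, Fcer1g was high in every library, at 1710 to 2580 FPKM in the ovariectomized libraries and 508 to 680 in the unoperated ones. All 4 tested genes of histamine and serotonin handling were higher with vehicle, among them Hnmt, which inactivates histamine, by 0.73 ± 0.10 (adjusted p = 5.22e-05, limma), and the histamine receptor gene Hrh2 by 0.63 ± 0.09 (1.24e-04). Hdc was not counted in that list. Of 21 growth and alarm cytokine genes with their receptors, 6 were higher and 13 lower, and of 8 genes around the CD200 receptors 3 were higher and 4 lower, with Cd200r1 at -0.86 where Cd200r3 was higher. Of 18 tested GATA and granulocyte lineage factors, 15 were higher and 2 lower, led by Nfe2 with 1.54 ± 0.10 (adjusted p = 2.80e-07, limma), and Gata1 stayed at or under 0.291 FPKM in all libraries. Of 19 granule protease and granule core genes, 14 were higher and 5 lower.

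Markers of other cells moved with the same comparison, and their part in it was not tested. Of 11 tested dendritic cell genes, 5 were higher and 6 lower in ERKO OVX than in KO with vehicle, with a median of -0.95. The defining mast cell list of 11 genes summed to 1.58 to 3.5 FPKM in the ovariectomized libraries and 1.18 to 1.73 in the unoperated ones. Kit, the stem cell factor receptor, was at 1.47 to 1.78 FPKM in the ovariectomized libraries and 1.10 to 1.55 in the unoperated ones and was called in neither ERKO OVX comparison with KO. Mcpt9, Tpsab1, Mrgprb1, Mrgprb2 and Tph1 were at 0 in all 8 ovariectomized libraries, and the tryptase gene Tpsb2 and the chymase genes Mcpt4 and Cma1 were at or under 0.224 FPKM there. Mcpt2, a mucosal mast cell protease, was at 0.809 and 1.24 FPKM in ERKO OVX agonist, 0.198 and 0.0482 in ERKO OVX vehicle, and 0 in all Ex3a OVX libraries. Its relative Mcpt1 was at 0.231 to 0.462 FPKM in ERKO OVX and likewise at 0 in Ex3a OVX. Reads shared among these related proteases may have been split between them.

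With vehicle, 11 of the 13 tested granulocyte precursor and neutrophil genes were higher in ERKO OVX than in KO and 2 lower. Their median change was 2.07, and 41.0% of all genes tested were called higher. Elane, Mpo, Ctsg, Ltf and Ngp passed the filter through ovariectomized libraries alone, so that being higher there was built into their being tested. Mpo, the myeloperoxidase of primary granules, stood at 8.30 and 8.19 FPKM in Ex3a OVX agonist, 16 and 16.5 in Ex3a OVX vehicle, 15.9 and 16.9 in ERKO OVX agonist, and 24.4 and 23.6 in ERKO OVX vehicle, against 0 to 0.146 in the unoperated libraries. Ctsg (cathepsin G) was at 4.48 to 12.4 FPKM in the ovariectomized libraries and at or under 0.0509 in the unoperated ones. Of 4 tested eosinophil markers 1 was higher and 2 lower. Prg2 among them also passed the filter through ovariectomized libraries alone, so that being higher there was built into its being tested. Epx was at or under 0.123 FPKM in all libraries, while Prg2, which basophils also express, was at 0.852 to 1.96 FPKM in the ovariectomized libraries and 0.0635 to 0.297 in the unoperated ones. The list of 10 eosinophil genes summed to 32.4 to 64.8 FPKM in the ovariectomized libraries and 77.0 to 115 in the unoperated ones. The largest term of that sum was Cd24a, at 21.4 to 34.6 FPKM in the ovariectomized libraries and 53.2 to 88.4 in the unoperated ones. The sum is therefore not read as a level of eosinophil RNA. T and NK cell markers summed to 6.72 to 22.8 FPKM in the ovariectomized libraries and 1.35 to 2.27 in the unoperated ones. B cell markers summed to 3.59 to 8.79 FPKM in the ovariectomized libraries and 0.251 to 0.560 in the unoperated ones.

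**Figure D3:**
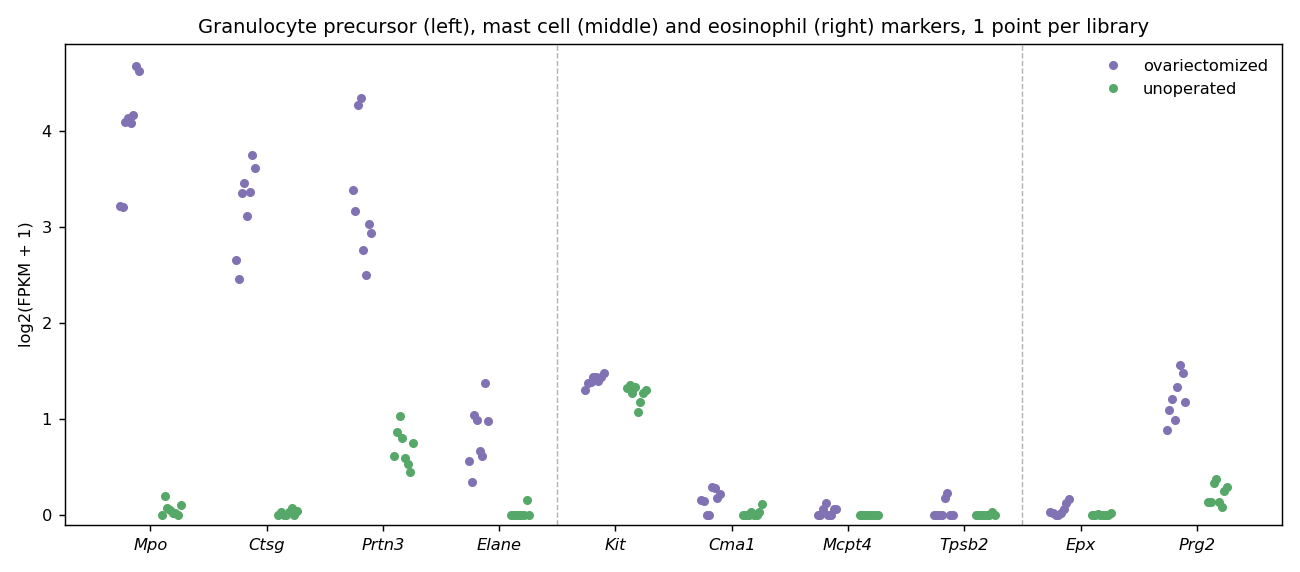
log2(FPKM + 1) (vertical axis) of granulocyte precursor markers (left), mast cell markers (middle) and eosinophil markers (right), 1 point per library, ovariectomized in violet and unoperated in green. Mpo and Ctsg are near 0 in the unoperated libraries and at 4.48 FPKM or more in the ovariectomized ones, Kit overlaps between the states, and the chymase and tryptase genes and Epx stay near 0 in both.

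Ex3a OVX was set against ERKO OVX, by their source labels the null against the short receptor, under the same surgery and pellet. The genotype fields turn the 2 forms round with vehicle and give both arms the truncated receptor with agonist, so the receptor form behind a difference cannot be told from the labels. Mcpt8, Prss34, Cpa3, Fcer1a, Ms4a2 and Gata2 were lower in Ex3a OVX with vehicle and with agonist, and Hdc was not. With vehicle, 6 of 7 tested genes were called lower and 1 higher, against 26.1% of all genes tested lower and 29.2% higher. Ms4a2 was tested only because it passed the filter in ERKO OVX. The Ex3a OVX mean was 0.173 times the ERKO OVX mean for Fcer1a, 0.272 times for Cpa3, 0.306 times for Ms4a2, 0.357 times for Mcpt8, 0.457 times for Gata2 and 0.738 times for Prss34. On the log2(FPKM + 1) scale the changes with vehicle were -1.86 ± 0.08 for Fcer1a (adjusted p = 4.85e-08, limma), -1.67 ± 0.07 for Cpa3 (6.11e-08) and -1.44 ± 0.10 for Mcpt8 (1.28e-06). Gata2 changed by -0.73 ± 0.08 (adjusted p = 5.24e-05, limma), Ms4a2 by -0.71 ± 0.08 (3.73e-05) and Prss34 by -0.43 ± 0.07 (5.33e-04). Hdc was 1.32 times as high in Ex3a OVX vehicle as in ERKO OVX vehicle, a change of 0.34 ± 0.11 (adjusted p = 0.0222, limma). This Hdc call was lost without the first ERKO OVX vehicle library (adjusted p = 0.0743, limma). It was also lost with no filter on low values (0.0652) and with a pseudocount of 0.1 FPKM (0.0795). The Prss34 call was also lost with that pseudocount (adjusted p = 0.116 with vehicle and 0.0519 with agonist).

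With agonist, 6 of 7 tested genes were called lower in Ex3a OVX, against 30.6% of all genes tested. The changes were -1.72 for Fcer1a, -1.63 for Cpa3, -1.53 for Mcpt8, -0.89 for Gata2, -0.53 for Ms4a2 and -0.52 for Prss34, with adjusted p between 6.99e-08 and 2.27e-04 in limma. Hdc changed by 0.09 ± 0.11 and was not called (adjusted p = 0.488, limma). Cd200r3, tested without the filter, changed by -0.22 ± 0.08 with vehicle (adjusted p = 0.0879, limma) and 0.09 ± 0.08 with agonist (0.502). The error in these comparisons comes from the unoperated libraries, since each ovariectomized pair was counted as 1 sample. Mcpt8, Prss34, Cpa3, Fcer1a and Ms4a2 were near 0 there. Their SE and p-values therefore do not measure the spread at the levels of the ovariectomized libraries. Fitted on the 8 ovariectomized libraries alone, the same 6 genes were called lower in both treatments and Hdc higher with vehicle (adjusted p = 0.00119, limma). That fit counted paired libraries as separate samples, although the pairs varied hardly more than sampling alone would give. Its p-values may therefore rest on technical spread.

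Genes of the same cells and pathways moved in both directions in this comparison. Of all genes tested, 29.2% were called higher in Ex3a OVX and 26.1% lower with vehicle. Nothing is read from the counts of this and the following lists against those shares. With vehicle, 6 of the 17 tested further basophil and mast cell genes were higher in Ex3a OVX and 4 lower, with a median of -0.01. Cyp11a1 moved with the proteases, by -1.75 ± 0.09 (adjusted p = 1.64e-07, limma), while Gzmb, a granzyme of cytotoxic lymphocytes and some granulocytes, moved by 1.26 ± 0.15 (7.01e-05) the other way. Of 21 growth and alarm cytokine genes with their receptors, 5 were higher in Ex3a OVX and 10 lower. The alarmin gene Il33, a basophil activator, changed by -1.55 ± 0.11 with vehicle (adjusted p = 1.47e-06, limma), and Stat5a, which relays IL-3 and GM-CSF signals, by -1.22 ± 0.05 (3.91e-08). In the FcεRI signalling list 14 genes were higher and 5 lower, and Lat changed by -0.78 ± 0.07 (adjusted p = 7.41e-06, limma). In the granule list 11 of 19 were higher and 5 lower, among them Prtn3, a neutrophil serine protease, with a change of 1.32 ± 0.16 (1.03e-04). Of the 4 tested genes of histamine and serotonin handling, Hrh2 was higher in Ex3a OVX vehicle, by 0.86 ± 0.11 (adjusted p = 1.01e-04, limma), and Maob changed by -0.78 ± 0.06 (2.74e-06).

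Markers of other cells differed between the 2 arms as well, and their part in the result was not tested. Of 13 tested granulocyte precursor and neutrophil genes 4 were higher in Ex3a OVX and 6 lower with vehicle, with a median of -0.28. All 4 tested eosinophil genes were lower, with a median of -0.51. Of 11 macrophage genes 9 were higher and 1 lower, with a median of 1.83, led by C1qa with 5.09 ± 0.06 (adjusted p = 3.60e-11, limma). Of 5 tested T and NK cell genes 4 were higher and 1 lower, with a median of 0.90. Kit, at 1.62 and 1.70 FPKM in Ex3a OVX vehicle and 1.70 and 1.78 in ERKO OVX vehicle, was not called.

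The 8 genes did not keep 1 fixed proportion across the ovariectomized arms. Relative to Mcpt8 in the same library, Prss34 was at 1.26 to 1.52 in the 4 Ex3a OVX libraries and 0.635 to 0.731 in the 4 ERKO OVX libraries. Cpa3 per Mcpt8 was at 0.223 to 0.302 in Ex3a OVX and 0.303 to 0.388 in ERKO OVX, and Fcer1a per Mcpt8 at 0.0541 to 0.0925 in Ex3a OVX and 0.132 to 0.143 in ERKO OVX. Hdc per Mcpt8 was at 0.342 to 0.645 in Ex3a OVX and 0.0869 to 0.194 in ERKO OVX, and Cd200r3 per Mcpt8 at 0.0331 to 0.0663 in Ex3a OVX and 0.0164 to 0.0213 in ERKO OVX. Between the 2 arms these 5 ratios did not overlap, whereas Gata2 per Mcpt8 did. For Cpa3 the arms all but met, at 0.302 in Ex3a OVX and 0.303 in ERKO OVX. Within Ex3a OVX, Cpa3 per Mcpt8 was 0.223 and 0.241 with vehicle and 0.294 and 0.302 with agonist. Of the 2 receptor subunits, Fcer1a per Ms4a2 was at 1.52 to 3.73 in Ex3a OVX and 4.47 to 5.66 in ERKO OVX. Ratios of genes within a library do not depend on its total, and they were described without a test.

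**Figure D4:**
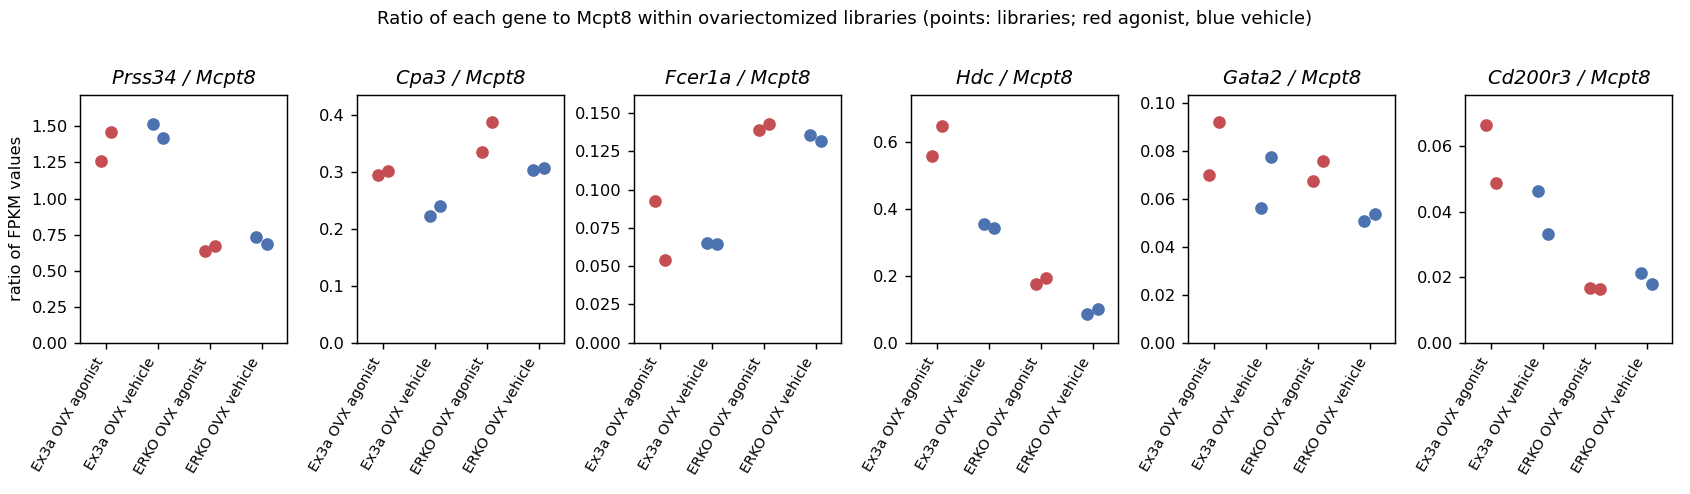
Ratio of the FPKM of each gene to that of Mcpt8 in the same library (linear axes from 0), for the 8 ovariectomized libraries, agonist in red and vehicle in blue. Prss34, Hdc and Cd200r3 stand higher relative to Mcpt8 in Ex3a OVX and Fcer1a stands higher in ERKO OVX. For Cpa3 the arms all but meet, and Gata2 overlaps.

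Over the 8 ovariectomized libraries, which share 2 arms and 2 treatments, Pearson's r of log2(FPKM + 1) was 0.98 between Mcpt8 and Cpa3, 0.98 between Mcpt8 and Fcer1a, 0.99 between Cpa3 and Fcer1a and 0.83 between Mcpt8 and Prss34. Hdc ran the other way, with r of -0.90 with Prss34 and -0.56 with Ms4a2 and with Gata2. These values describe 4 groups of paired libraries and carry no test.

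Agonist was set against vehicle within each arm, with the doubt about alleles in ERKO OVX and KO given above. The error again comes from the unoperated libraries, where Mcpt8, Prss34, Cpa3, Fcer1a and Ms4a2 were near 0. In ERKO OVX, Mcpt8, Prss34, Fcer1a and Cpa3 were lower with agonist than with vehicle and Hdc was higher. Of the 7 tested genes 4 were called lower and 1 higher, against 19.2% of all genes tested lower and 18.3% higher. The agonist mean was 0.665 times the vehicle mean for Prss34 (-0.57 ± 0.07 on the log2 scale, adjusted p = 2.64e-04, limma), 0.723 times for Mcpt8 (-0.46 ± 0.10, 0.00581) and 0.759 times for Fcer1a (-0.34 ± 0.08, 0.00848). Cpa3 was at 0.853 times (-0.21 ± 0.07, adjusted p = 0.0458, limma), a call lost when any of 10 of the 16 libraries was left out, with adjusted p of up to 0.0814. Hdc was at 1.41 times its vehicle mean (0.42 ± 0.11, adjusted p = 0.0123, limma), and Ms4a2 and Gata2 were not called. With a pseudocount of 0.1 FPKM none of the 5 calls was kept, with adjusted p between 0.0502 for Hdc and 0.528 for Cpa3. In the 8 ovariectomized libraries alone, with paired libraries counted as separate samples, all 5 were called.

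In Ex3a OVX, Prss34 and Mcpt8 were lower with agonist. These were 2 of 7 tested genes called lower, against 18.2% of all genes tested, with none called higher and 4 at an unadjusted p under 0.05 in limma. Prss34 was at 0.616 times its vehicle mean (-0.67 ± 0.07, adjusted p = 8.37e-05, limma) and Mcpt8 at 0.667 times (-0.55 ± 0.10, 0.00216), and the Mcpt8 call was lost with a pseudocount of 0.1 FPKM (adjusted p = 0.417). Cpa3 changed by -0.18 ± 0.07 (adjusted p = 0.0822, limma) and Fcer1a by -0.20 ± 0.08 (0.0732). Without the first Ex3a OVX agonist library, which held 1.21 FPKM of Fcer1a, 4 genes were called, with Fcer1a at -0.43 (adjusted p = 0.0025) and Cpa3 at -0.22 (0.0437), and without the first Ex3a OVX vehicle library 4 were called, with Cpa3 and Gata2 among them. Fitted on the 8 ovariectomized libraries as separate samples, 4 were called as well, Cpa3 at adjusted p = 0.021 and Hdc, at 0.17, with 0.0468. The Mpo values given above were also lower with agonist than with vehicle in both ovariectomized arms, and their part in the result was not tested. Cd200r3, tested without the filter, changed by -0.01 ± 0.08 in Ex3a OVX and by -0.32 ± 0.08 in ERKO OVX (adjusted p = 0.0406, limma).

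In KO and WT the response could be read for Hdc and Gata2 only, the other 5 tested genes being near 0. Hdc was higher with agonist by 0.91 ± 0.07 in KO (adjusted p = 5.38e-06, limma) and by 1.16 ± 0.07 in WT (7.08e-07). Gata2 fell by 0.17 in KO and by 0.30 in WT on the log2 scale. Thus 1 of 7 tested genes was higher and 1 lower in each arm, against 25.9% higher and 25.3% lower of all genes tested in KO, and 30.8% higher and 27.0% lower in WT. The Gata2 call in WT had an adjusted p of 0.00176 in limma. In KO it had 0.0364 and was lost with a pseudocount of 5 FPKM (0.0804), with all 16 libraries as separate samples (0.0972) and without 5 of the libraries in turn, the first and second KO agonist, the second KO vehicle and either WT vehicle library (0.0508 to 0.236). With a pseudocount of 0.1 FPKM, Cpa3 was called in KO and Prss34 in WT, where no library held more than 4.2 fragments of either. Of the 4 tested genes of histamine and serotonin handling, 1 was higher and 2 lower with agonist in KO, and 1 higher and 3 lower in WT. The higher one was Maob, a monoamine oxidase, at 0.88 ± 0.04 in KO (adjusted p = 1.24e-07, limma) and 0.71 ± 0.04 in WT (3.89e-07), and among the lower ones was Hrh2, at -0.60 ± 0.08 in KO (1.19e-04) and -0.49 ± 0.08 in WT (4.02e-04).

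**Figure D5:**
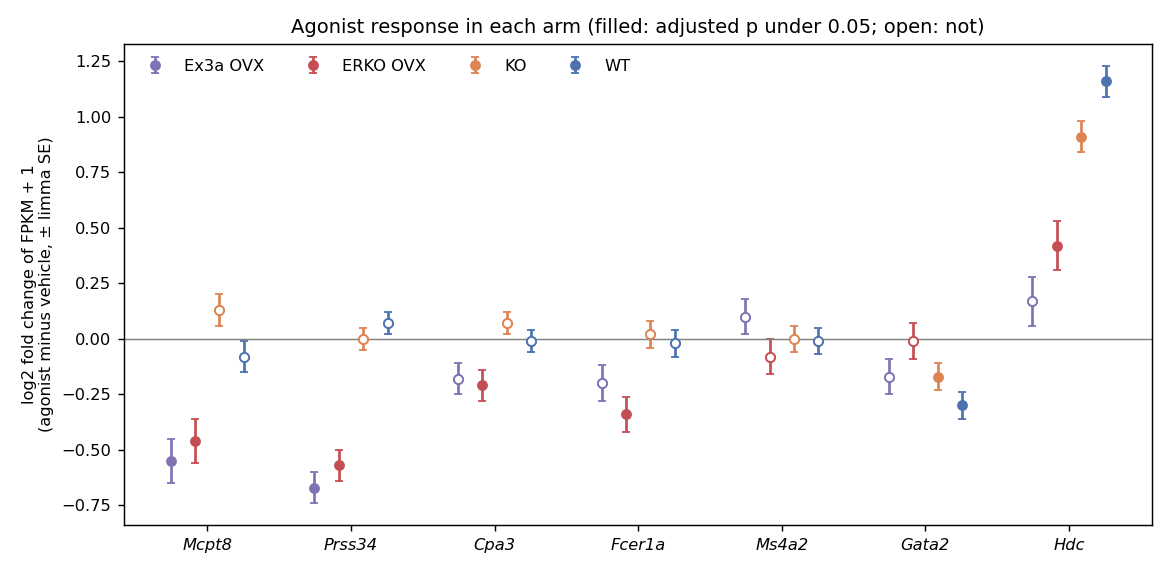
Agonist minus vehicle difference of log2(FPKM + 1) (vertical axis, bars ± SE from limma) in the 4 arms, Ex3a OVX, ERKO OVX, KO and WT from left to right, filled where the adjusted p is under 0.05. Prss34 and Mcpt8 are below 0 in both ovariectomized arms, and Hdc is above 0 in all arms, from 0.17 in Ex3a OVX to 1.16 in WT.

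Differences between responses were tested as interaction terms. Between ERKO OVX and KO, 5 of 7 genes had a lower response in ERKO OVX, against 12.4% of all genes tested. The differences were -0.59 ± 0.12 for Mcpt8 (adjusted p = 0.00745, limma), -0.57 ± 0.08 for Prss34 (0.00141), -0.49 ± 0.13 for Hdc (0.0241), -0.36 ± 0.10 for Fcer1a (0.0257) and -0.29 ± 0.09 for Cpa3 (0.0462). For Mcpt8, Prss34, Fcer1a and Cpa3 the KO response is that of a gene near 0, so the difference restates the ERKO OVX response. For Hdc it sets 2 responses in the same direction side by side, 0.42 in ERKO OVX and 0.91 in KO, and the call was lost with a pseudocount of 5 FPKM (adjusted p = 0.34), with no filter on low values (0.0757) and without the second ERKO OVX vehicle, first KO agonist or first KO vehicle library (0.0506 to 0.063). The Cpa3 call was lost without any of 9 libraries in turn (0.0558 to 0.0964), and the Fcer1a call without the second KO agonist or first KO vehicle library (0.0594 and 0.0651). With 16 separate libraries the Fcer1a call was lost as well (adjusted p = 0.0584, limma). With a pseudocount of 0.1 FPKM the calls of Mcpt8, Prss34, Cpa3 and Fcer1a were lost (0.0971 to 0.428). Between Ex3a OVX and ERKO OVX none of the 7 was called in limma, against 31.3% of all genes tested in either direction, with 0 at an unadjusted p under 0.05. That difference was -0.25 ± 0.15 for Hdc, 0.14 ± 0.11 for Fcer1a and -0.10 ± 0.10 for Prss34. Without the second Ex3a OVX agonist library Fcer1a was called, at 0.34 (adjusted p = 0.0453, limma), and on the 8 ovariectomized libraries alone Hdc was called, at -0.25 (0.0463). Between KO and WT none was called in limma, against 6.95% of all genes tested in either direction, and 1 had an unadjusted p under 0.05, which was Hdc with -0.25 ± 0.11 (adjusted p = 0.203).

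KO was set against WT, by the source labels the short against the normal receptor in unoperated mice, while the genotype field of KO vehicle gives the null allele. Gata2 was lower in KO with vehicle, with a change of -0.52 ± 0.06 (adjusted p = 4.04e-05, limma), and with agonist, with -0.39 ± 0.06 (3.54e-04). Hdc was higher in KO with vehicle by 0.26 ± 0.07 (adjusted p = 0.0134, limma), and not called with agonist (0.01 ± 0.07). With vehicle 1 of 7 tested genes was thus higher and 1 lower, against 31.5% and 28.7% of all genes tested, and with agonist 1 was lower, against 27.6%. The Hdc call was lost with a pseudocount of 5 FPKM (adjusted p = 0.0641), without the second KO vehicle library (0.108) and without the first WT vehicle library (0.068). Mcpt8, Prss34, Cpa3, Fcer1a and Ms4a2 held between 0 and 6.5 fragments in any KO or WT library, and a difference between these arms was not detectable at this depth. Within the labelled short receptor form, Gata2 spanned 2.69 to 2.81 FPKM in ERKO OVX and 0.317 to 0.570 in KO.

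The tested genes outside the 8 whose pattern over the 12 samples was most like their mean were Il13 (Pearson's r = 0.9925), Tmem258 (0.9911), Csn2 (0.9897), Ffar2 (0.9885) and Pbdc1 (0.9874). Il13 stood at 0.651 and 0.681 FPKM in Ex3a OVX agonist, 0.539 and 0.752 in Ex3a OVX vehicle, 1.49 and 1.41 in ERKO OVX agonist, and 1.34 and 1.31 in ERKO OVX vehicle, against 0 to 0.0876 in the unoperated libraries. Csn2, which encodes the milk protein beta-casein, stood at 3.41 to 4.82 FPKM in Ex3a OVX and 22.7 to 23.9 in ERKO OVX, against 0 to 0.227 in the unoperated libraries. Ffar2, a receptor for short-chain fatty acids, was at 1.08 to 1.23 FPKM in Ex3a OVX, 1.73 to 2.71 in ERKO OVX and 0.0764 to 0.255 in the unoperated libraries. Tmem258 and Pbdc1 were expressed in all libraries and differed by far less between states, Tmem258 at 176 to 223 FPKM in the ovariectomized libraries and 143 to 149 in the unoperated ones. All 5 were higher in every ovariectomized library than in every unoperated one. They were chosen for their likeness to genes with that pattern, so nothing is read from this. Il13 was tested only because it passed the filter in ERKO OVX.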

How the data were processed

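RNA of 16 libraries of bone marrow-derived dendritic cells, 2 in each of 8 groups, was read as 1 table of FPKM that the authors deposited. Tools listed in the submitters' processing notes are STAR, HTSeq, cutadapt, FastQC and DESeq2, with mm10 as the build. Which of them gave the FPKM is not stated there. Groups follow the source labels. The 8 genes and all gene lists were chosen with earlier results of these data known.

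Values were tested as log2(FPKM + 1) with limma 3.58.1 (R 4.3.3, mean trend, robust) and Benjamini-Hochberg adjustment within each comparison over 11347 genes with at least 1 FPKM in at least 2 libraries, after 1233 small RNA rows were left out. A call is an adjusted p under 0.05. Within ovariectomized groups, paired libraries varied hardly more than sampling alone would give (median ratios of observed to expected variance 0.986 to 1.53, against 3.49 to 10.7 in unoperated groups). Their mean entered the fit as 1 sample, which leaves 12 samples, and the error comes from the unoperated libraries. For genes near 0 in those libraries, the SE and p-values do not measure the spread at the ovariectomized levels. In 4 genes, 5 zeros were read as missing. Depth was estimated from the step between low FPKM values of 2483 single-transcript genes, of which 59.7% to 67.2% came within 0.1 of a whole fragment number, so fragment numbers are approximate and no count test was run. The fit was run on simulated data for KO agonist minus KO vehicle only, with spread taken from the unoperated groups. That check does not cover comparisons with ovariectomized groups. Alternatives were other pseudocounts (0.1 and 5), no filter, 16 separate libraries, a replicate block, median-ratio scaling, each surgery state alone and each library left out. Genes outside the 8 were named by fixed rules, with exceptions. The rules were at most 5 called genes per list and comparison with the largest change, defining mast cell and eosinophil markers, and the 5 genes most correlated with the mean of the 8. Other genes named by level belong to the same lists but were picked outside these rules, among them Itga2, Il4, Il1rl1, Il3ra, Gata1 and Cd209a.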

Additional observations from a re-analysis of the deposited data

Results flagged for a closer look

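The agonist response was called lower in ERKO OVX than in KO for 5 of the 7 tested genes by the interaction term in limma. Of all genes tested, 12.4% were called lower. The count of 5 fell to 1 with a pseudocount of 0.1 FPKM and to as few as 2 with a library left out. The differences, ERKO OVX response minus KO response on the log2(FPKM + 1) scale, were -0.59 for Mcpt8, -0.57 for Prss34, -0.49 for Hdc, -0.36 for Fcer1a and -0.29 for Cpa3. In KO, Mcpt8, Prss34, Fcer1a and Cpa3 were near 0 with agonist and with vehicle, so a response could not be seen there at this depth. Hdc was detected in both arms and was higher with agonist in both.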

How the results depend on the processing

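Of 616 values of the 7 genes under settings other than leaving out a library, 585 kept direction and call, 22 lost the call and 9 gained one, and none reversed. With 1 library left out, 1418 of 1456 did, 32 lost the call and 6 gained one. With a pseudocount of 0.1 FPKM, the calls fell to 0 of 5 for the ERKO OVX response, 1 of 2 for the Ex3a OVX response and 1 of 5 for the ERKO OVX minus KO difference in response, where Hdc was the 1 left. With a pseudocount of 5 FPKM, 1 of 2 was left for the KO response and for KO minus WT with vehicle, and 1 was called for the Ex3a OVX minus ERKO OVX difference in response, as also with no filter. With 16 separate libraries, 1 was called for the KO response. On the 8 ovariectomized libraries alone, chosen after seeing the data, 4 were called for the Ex3a OVX response and 1 for its difference from ERKO OVX. That fit counted paired libraries as separate samples, so its p-values may rest on technical spread. Leaving out single libraries gave 1 to 2 calls for the KO response, 4 to 5 for ERKO OVX, 2 to 4 for Ex3a OVX, 1 to 2 for KO minus WT with vehicle, 0 to 1 for the Ex3a OVX minus ERKO OVX difference in response and 2 to 5 for that of ERKO OVX minus KO. Over all genes tested, the KO minus WT difference in response was called for 789 genes, for 404 with no filter and for as few as 431 with a library left out. The Ex3a OVX minus ERKO OVX difference was called for 3552 genes, and for 5533 with 16 separate libraries. Where a call changed, the cause was not tested.

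Replicate numbers did not pair the samples, since deviations of libraries with the same number correlated at only -0.074 to 0.074. With the replicate number as a block, 4 of the 7 genes were called for the ERKO OVX response, Cpa3 having an adjusted p of 0.058 in limma there and 0.0604 in the ERKO OVX minus KO difference. At most 6.5 fragments of Mcpt8 and fewer of Prss34, Cpa3, Fcer1a and Ms4a2 in unoperated libraries limit what can be said of those arms.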
